A study of Mus musculus with 2 samples.

Results

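Mitochondrial iron-sulfur cluster assembly was followed through 8 genes, Iscu, Nfs1, Glrx5, Hscb, Isca1, Isca2, Lyrm4 and Fdx1, which were taken by symbol from a list drawn up for this pathway. Each symbol matched 1 identifier in both gene tables, so all 8 were measured among 43346 genes. The cells were MEL, an immortalized line of mouse erythroleukemia cells, which are red cell precursors arrested by leukemic transformation. The labels name no treatment, give the age as unknown and place both libraries of polyadenylated RNA in 1 group, as biological replicates 1 and 2. Nothing was compared between conditions, and the question put to the data is how strongly each step of the pathway was expressed and how far the replicates differed. Nothing in the labels says whether the replicates were separate cultures, so the spread between them may be partly technical.

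Iron-sulfur clusters are small inorganic cofactors that carry electrons or hold the shape of an enzyme. In mitochondria a desulfurase takes sulfur from cysteine, a scaffold protein joins it to iron, a chaperone system passes the new cluster to a glutaredoxin, and late-acting carriers hand it to its final proteins. Erythroid cells draw on this pathway because ferrochelatase, the last enzyme of heme synthesis, carries such a cluster, and because the iron regulatory protein encoded by Aco1 switches between enzyme and RNA-binding forms with its cluster. The glutaredoxin gene Glrx5 is known from zebrafish and human anemias in which that link fails.

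Replicate 1 held 67735380 expected counts on genes and replicate 2 held 79923143. All 9 erythroid markers checked were above 10 TPM in both replicates, and of 17 markers of other blood and tissue lineages only Itga2b and Gp9, both of the megakaryocyte lineage, reached 1 TPM in both. TPM gives the share of all transcripts that come from a gene, with its length taken into account. The erythroid markers summed to 1083 TPM in replicate 1 and 1858 in replicate 2. After scaling, 4 of 9 were at least 2-fold higher in replicate 2 and 0 were 2-fold lower. The 4 were Gata1, Epor and the globin genes Hba-a1 and Hbb-bs, the latter at 2.01-fold and 2.11-fold. Their paired globin genes Hba-a2 and Hbb-bt were 1.37-fold and 1.52-fold higher, short of the limit. How reads were split within each globin pair was not tested. Past 2-fold in either direction were 20.4% of all genes tested and 13.5% of those of at least 10 TPM in both replicates. With the trend of all genes over GC content removed, 0 of 9 were past 2-fold. Before that removal the transferrin receptor gene Tfrc ran the other way, with 177.5 and 80.7 TPM. Its log2 count ratio of replicate 2 over replicate 1 was -0.95 after scaling and 0.14 with the GC trend removed. The other markers summed to 27.4 and 52.4 TPM, and Irf8 and Cd3e had 0 counts in both. The replicates also differed by base composition: after scaling by TMM, which sets library sizes by the bulk of genes, the median log2 count ratio of replicate 2 over replicate 1 was -0.84 over genes of at most 45.6% GC and 0.73 over those of at least 54.9%. Values of both replicates are therefore given for each of the 8 genes before their mean ± SD (n = 2), and the part of composition or cell state in any single difference was not tested.

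All 8 genes stood above 10 TPM in both replicates, a level reached by 31.4% of 21474 protein-coding genes and by 67.1% of the 10045 that reached 1 TPM in both. The median of their mean levels was 44.5 TPM, with medians of 51.8 in replicate 1 and 43.6 in replicate 2, against 23.0 for detected protein-coding genes. Their places among detected protein-coding genes ran from percentile 47.2 for Hscb to 96.3 for Glrx5. The steps of the pathway were thus all expressed, but at unequal levels, and 1 gene held about as much TPM as the other 7 together. The 8 genes summed to 613 TPM in replicate 1 and 663 in replicate 2, of which Glrx5 alone held 49.0% and 50.8%.

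**Figure D1:**
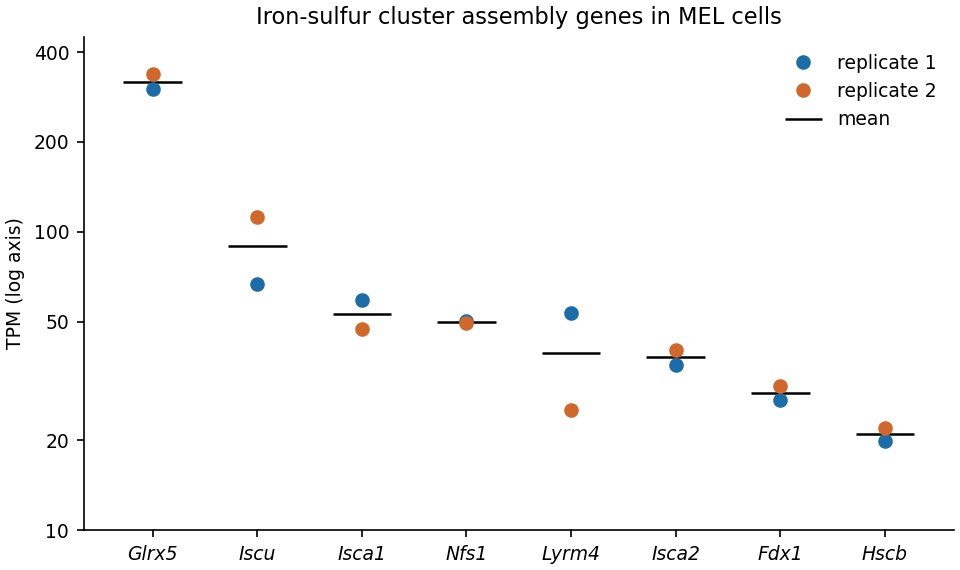
TPM of the 8 assembly genes on a log axis, with 1 point for each replicate and a bar at the mean, ordered by mean. Glrx5 lies at 301 and 336 TPM, the other 7 lie between 19.9 and 112, and Iscu and Lyrm4 show the widest gaps between replicates.

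The first step is carried by the desulfurase NFS1, which frees sulfur from cysteine, and by its small partner ISD11, encoded by Lyrm4, which keeps NFS1 folded and active. Nfs1 (ENSMUSG00000027618.13; mm10 chromosome 2, 156123639-156144186, minus strand) reached 50.3 TPM in replicate 1 against 49.3 in replicate 2 (49.8 ± 0.764). Lyrm4 (chromosome 13, 35978395-36117526, minus strand) reached 53.3 TPM in replicate 1 against 25.2 in replicate 2 (39.2 ± 19.8). The replicates were close for Nfs1 and far apart for Lyrm4, so the partners had nearly equal levels in replicate 1, while in replicate 2 Nfs1 exceeded Lyrm4 1.95-fold.

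Lyrm4 was the only one of the 8 genes that differed at least 2-fold between replicates after TMM scaling. Its ratio was 2.12-fold, a log2 ratio of replicate 2 over replicate 1 of -1.09 with a 95% interval of -1.16 to -1.01 that covers counting error only (exact conditional binomial). Of 15251 genes holding 20 counts or more over both replicates, 20.4% were past 2-fold in either direction and 12.4% were at least 2-fold lower in replicate 2. Among those of at least 10 TPM in both replicates the shares were 13.5% and 8.56%, so 1 of 8 is a share near that of genes at large. By the reference models used for GC content, the Lyrm4 transcript held 47.6%, the lowest of the 8. With the GC trend over all genes removed its log2 ratio was -0.78 (1.71-fold), and with plain library totals it was -0.96, both short of 2-fold. Counting error was small here, with 3610 and 2182 counts.

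ISCU is the scaffold on which the cluster is built. Iscu (ENSMUSG00000025825.8; chromosome 5, 113772748-113778288, plus strand) was the second highest of the 8, with 66.6 TPM in replicate 1 against 112 in replicate 2 (89.4 ± 32.2). It was higher in replicate 2 by a log2 count ratio of 0.69 (0.62 to 0.75 by counting error), short of 2-fold. Its transcript was also the richest of the 8 in GC by the reference models, at 55.2%, and with the GC trend removed the ratio was 0.15. Iscu exceeded Nfs1 in both replicates, 1.32-fold and 2.27-fold, but the mean log2 ratio of 0.79 ± 0.55 (SD, n = 2) was inside the spread between replicates, set at 1.42 (2.67-fold), a difference between replicates that 95% of detected genes did not exceed in log2 TPM. This limit comes from single genes. It serves for pairs as a threshold of size and does not measure whether a ratio between genes repeats.

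Electrons for cluster assembly come from a mitochondrial ferredoxin that is recharged by ferredoxin reductase, the product of Fdxr. Fdx1 (chromosome 9, 51943306-51963556, minus strand), which encodes the ferredoxin best known for serving steroid-forming enzymes and protein lipoylation, reached 27.2 TPM in replicate 1 against 30.5 in replicate 2 (28.8 ± 2.28). Its paralog Fdx2, listed in the annotation as Fdx1l and known for its role in cluster assembly, stood at 149.7 and 254 TPM (201.7 ± 73.6). Fdx2 exceeded Fdx1 5.48-fold and 8.31-fold, with a mean log2 ratio of Fdx1 over Fdx2 of -2.75 ± 0.42 that lay beyond the replicate spread. Fdx1 and Fdxr (17.2 and 24.8 TPM) differed by less than that spread, at a log2 ratio of 0.48 ± 0.26.

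HSCB is the co-chaperone that brings the loaded scaffold to the chaperone HSPA9, which then releases the cluster. Hscb (chromosome 5, 110829070-110839777, minus strand) was the lowest of the 8, with 19.9 TPM in replicate 1 against 21.9 in replicate 2 (20.9 ± 1.40), and had the fewest counts, 557 and 971. Its count ratio favoured replicate 2 by 0.44 on the log2 scale (0.29 to 0.60 by counting error), and by 0.42 with the GC trend removed. Hspa9, which serves many mitochondrial proteins besides ISCU, stood at 793 and 415 TPM, so it exceeded Hscb 39.6-fold and 18.8-fold (log2 4.77 ± 0.76). Iscu exceeded Hscb 3.33-fold and 5.10-fold (log2 2.04 ± 0.44), also beyond the replicate spread.

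GLRX5, the mitochondrial glutaredoxin, receives the cluster from the chaperone and passes it on. Glrx5 (ENSMUSG00000021102.3; chromosome 12, 105032688-105042906, plus strand) reached 301 TPM in replicate 1 against 336 in replicate 2 (319 ± 25.1), with 12281 and 17540 counts. Both replicates lay above every value of the other 7 genes. Glrx5 exceeded Iscu, the next gene in order, 4.51-fold and 2.996-fold (log2 1.88 ± 0.42), which is beyond the replicate spread. Against the cytosolic glutaredoxin gene Glrx3 it was higher 1.82-fold and 5.60-fold (log2 1.67 ± 1.15). That mean passes the limit, but the ratio of 0.86 in replicate 1 alone does not, and Glrx3 itself had 165 TPM in replicate 1 and 59.96 in replicate 2, past 2-fold between replicates. Over Bola3, a partner of GLRX5 in handing on clusters, the ratio of 0.81 ± 0.38 was inside the replicate spread.

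ISCA1 and ISCA2 are related late-acting carriers that work together to build the larger clusters needed by lipoate synthase and parts of the respiratory chain. Isca1 (chromosome 13, 59755409-59769810, minus strand) reached 59.3 TPM in replicate 1 against 47.1 in replicate 2 (53.2 ± 8.64). Isca2 (chromosome 12, 84773251-84775088, plus strand) stood at 35.9 and 40.2 TPM (38.0 ± 3.06). The ranges of the pair did not overlap, but the ratio of Isca1 over Isca2, 1.65-fold and 1.17-fold (log2 0.48 ± 0.35), was inside the replicate spread. Both replicates of each stood well above the third member of this late step, Iba57, at 7.61 and 11.2 TPM, and Isca1 exceeded it 7.70-fold and 4.19-fold (log2 2.51 ± 0.62).

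In descending order of mean TPM the genes were Glrx5, Iscu, Isca1, Nfs1, Lyrm4, Isca2, Fdx1 and Hscb. Only the first step in this order, Glrx5 over Iscu, was beyond the replicate spread. For 4 of the 7 neighbouring pairs the ranges of the replicates did not overlap, namely Glrx5 over Iscu, Iscu over Isca1, Isca2 over Fdx1 and Fdx1 over Hscb. The other 3 pairs, all between Isca1 and Isca2, changed their order between the replicates: Isca1 led Nfs1 in replicate 1 only, Nfs1 led Lyrm4 in replicate 2 only, and Lyrm4 led Isca2 in replicate 1 only. Beyond neighbours, Isca1 and Nfs1 each exceeded Isca2 in both replicates with ranges that did not overlap. Of the 14 partner pairs compared, 7 had a mean log2 ratio beyond the replicate spread and the same direction in both replicates. Of these, Glrx5 over Glrx3 was inside the spread in replicate 1, at 0.86. Nfs1 over Lyrm4 and Iscu over Nfu1 were the 2 that changed sign. No test was run on these ratios.

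**Figure D2:**
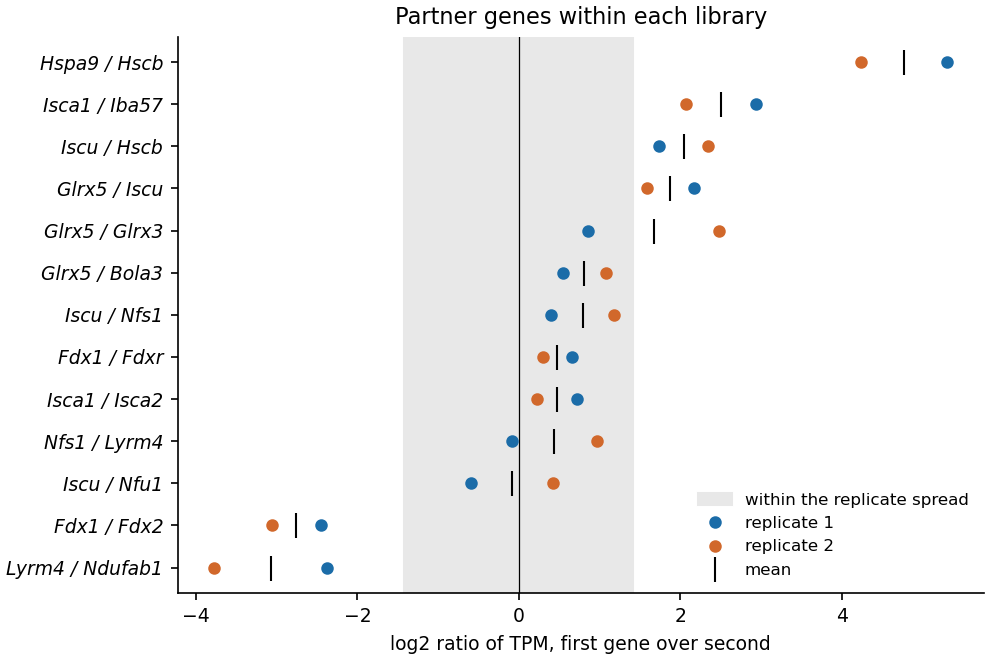
Log2 ratio of TPM within each replicate for 13 pairs of partner genes, with 1 point for each replicate, a tick at the mean and a grey band out to 1.42 on either side, the replicate spread. Hspa9 over Hscb lies farthest to the right at a mean of 4.77, and Lyrm4 over Ndufab1 farthest to the left at -3.08.

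By counts scaled with TMM, 6 of the 8 genes were higher in replicate 2, and their median log2 ratio was 0.16 against 0.02 for all genes tested. Glrx5, Isca2 and Fdx1 differed little, with log2 ratios of 0.15, 0.16 and 0.16, and Nfs1 by 0.21, while Isca1 was lower in replicate 2 at -0.34. With the GC trend removed, the ratio of 5 of the 8 genes became smaller in size: Nfs1 came to -0.0017, Isca1 to -0.06, Iscu to 0.15, and Hscb and Lyrm4 as given above. It became larger for Isca2 at 0.30, for Fdx1 at 0.25 and for Glrx5 at -0.17, whose direction turned. The GC content of Glrx5 comes from a transcript model of 2925 bases, while the files used one of 930 bases. That of Lyrm4 likewise comes from a model of 2086 bases in place of 1515. Ranks by GC content given above hold for the longer models only.

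**Figure D3:**
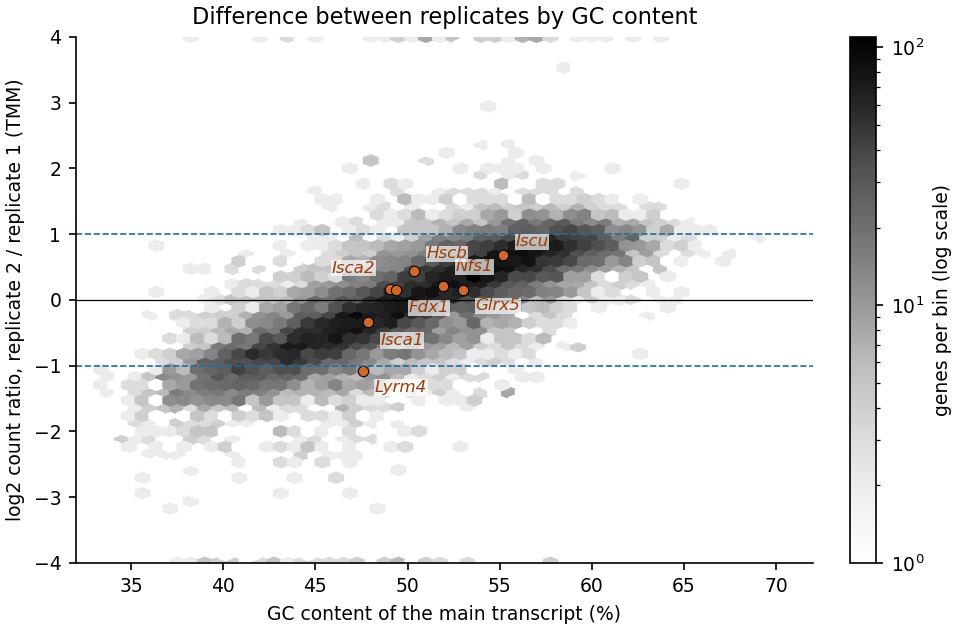
Log2 count ratio of replicate 2 over replicate 1 after TMM against the GC content of each gene's main transcript, for genes holding 20 counts or more over both replicates. Grey hexagons count genes on a log scale, with ratios beyond 4 drawn at the edge. Orange points are the 8 assembly genes and dashed lines mark 2-fold. The genes follow a rising trend with GC, and Lyrm4 is the 1 assembly gene past a dashed line.

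Assembly genes with more than 1 listed transcript were Iscu, Nfs1, Hscb and Isca1, with 7, 4, 4 and 2. The same protein-coding transcript held the majority of the gene's TPM in both replicates for all 4, and Glrx5, Isca2, Lyrm4 and Fdx1 each had only 1 listed transcript. As annotated, minor forms of Hscb, Nfs1 and Iscu each make a splice choice that the main transcript does not. Transcript shares rest on estimated counts of single-end reads. Reads crossing these splice choices were not counted, so a change in the splice choices themselves was not tested. The bases at those choices are shown as a place where the transcripts differ. It is not the only such place, since the models also differ in length and, for Nfs1, have 3 exons against 13. They are from the GENCODE M21 transcripts on GRCm38, the same build as mm10, for models whose lengths equal those in the files. Each run of 30 bases reads 5′ to 3′ along the gene's own strand, and capitals mark the bases by which a form differs from the one beside it.

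Hscb main transcript, exon 3 into exon 4: agaggactatatcttctaaagctccaggga
Hscb decay form, longer exon 3 into exon 4: actatatcttGTAAGctaaagctccaggga
Nfs1 main transcript, running on within exon 5: ccctggaagctgaggGCTTTCGGGTCACTT
Nfs1 3-exon form, shortened exon 5 into the last exon: ccctggaagctgaggGACCTACCTGTGCAG
Iscu main transcript, exon 1 into exon 2: CTCTACCACAAGAAGgttgtggatcattat
Iscu decay form, longer exon 1 into exon 2: GAAGGGAGGGTCCGGgttgtggatcattat
Iscu main transcript, exon 4 into exon 5: aactgcactgctccaTGCTGGCAGAAGACG
Iscu read-on form, exon 4 read on: aactgcactgctccaGTGAGTCTGCCCCAC

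Of the 8 genes, Hscb showed the widest shift between replicates. Its main transcript (ENSMUST00000056937.7) held 58.5% of the gene's TPM in replicate 1 and 97.9% in replicate 2. A form annotated as a target of nonsense-mediated decay, the pathway that removes messages with an early stop (ENSMUST00000144850.3), held 38.4% in replicate 1 and 0.639% in replicate 2. In its annotated model it keeps the 5 bases printed in capitals, so exon 3 ends at position 110835975 on chromosome 5 in place of 110835980. In counts this decay form took 138 of 557 in replicate 1 and 3.10 of 971 in replicate 2. Its model is short, 434 bases against 804, and its share of counts in replicate 1 was lower, at 24.7%. The gene as a whole differed little between the replicates in TPM, while its main transcript stood at 11.7 and 21.5 TPM.

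Nfs1 shifted in the same direction. Its main transcript (ENSMUST00000029147.11), with 13 exons, held 71.4% of the gene's TPM in replicate 1 and 91.3% in replicate 2. A 3-exon protein-coding form (ENSMUST00000184469.1) keeps 100 of the 153 bases of exon 5 and then joins position 156123978 in the last exon. It held 19.98% in replicate 1 and 1.18% in replicate 2, with 216 and 15.98 counts. By share of counts it came to 5.83% and 0.291%.

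In Iscu the main transcript had the smaller share in replicate 2. Its main transcript (ENSMUST00000026937.7) held 77.7% in replicate 1 and 60.3% in replicate 2. The decay form (ENSMUST00000134881.1) runs exon 1 on by 152 bases to position 113773096 and held 7.65% and 17.4% of TPM. By share of counts it came to 3.71% and 8.80%. With the other listed transcripts that share this longer exon its TPM share came to 8.91% and 19.1%. A read-on form (ENSMUST00000112312.3) continues past the end of exon 4 at position 113776849, which gives it 627 coding bases against 504, and held 5.17% and 12.2%. With another transcript that also reads on there, steady at 8.20% and 8.19%, it came to 13.4% and 20.4%.

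The size of these shifts can be read against 5271 genes of at least 10 TPM in both replicates with more than 1 transcript, whose largest shift of a transcript share had a median of 13.5 percentage points. The shift of 39.4 points in Hscb was larger than that of 93.4% of these genes, while 19.9 points in Nfs1 and 17.5 in Iscu were larger than 66.7% and 60.5%. Isca1 was among the steadiest, since its main transcript held 98.9% in each replicate.

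**Figure D4:**
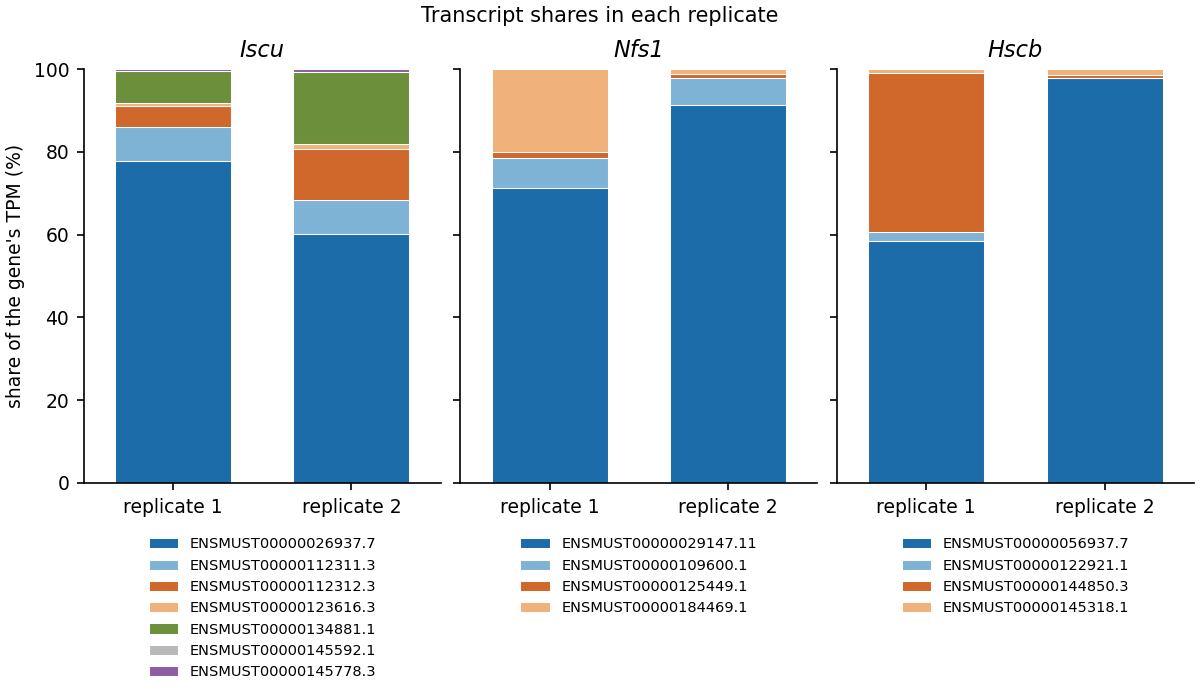
Share of the gene's TPM held by each transcript of Iscu, Nfs1 and Hscb, with 1 stacked bar for each replicate summing to 100% and colours naming transcripts by identifier. The decay form of Hscb takes 38.4% of the replicate 1 bar and under 1% of the replicate 2 bar, and the main transcript is the largest block in all 6 bars.

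A feature that the choice of genes did not use is their place in the genome. Of the 8 genes, 7 had a gene on the opposite strand that starts within 1000 bases of their own start, and for 5 of them that neighbour is protein-coding. Among 6742 protein-coding genes of at least 10 TPM in both replicates the shares were 31.7% and 20.8%. The neighbours were Sart3 for Iscu, Romo1 for Nfs1, Chek2 for Hscb, Npc2 for Isca2 and Fars2 for Lyrm4, besides the noncoding Snhg10 for Glrx5 and Etohd2 for Isca1. Fdx1 had none. Romo1, a gene of the inner mitochondrial membrane, was the highest of the neighbours with 179.9 TPM in replicate 1 against 421 in replicate 2. Nfs1 as a whole gene stayed near 50 TPM in both. Npc2 stood at 35.2 and 43.9 TPM beside 35.9 and 40.2 for Isca2, Sart3 at 36.5 and 44.3 beside 66.6 and 112 for Iscu, Chek2 at 16.8 and 13.7 beside 19.9 and 21.9 for Hscb, and Fars2 at 13.5 and 14.7 beside 53.3 and 25.2 for Lyrm4. Exons overlap the opposite gene over 148 bases for Nfs1 (4.10% of its exon bases), 115 for Lyrm4 (5.51%) and 314 for Isca1 (2.94%). On its own strand Nfs1 shares 256 bases (7.09%) with the gene model Gm28036, at 18.1 and 16.3 TPM. Whether reads were assigned by strand is not given in the sources used here. Reads in these stretches may therefore be mixed with those of the neighbour, which was not tested. The overlaps are those of GENCODE M21 models, while the counts were made with GENCODE M4.

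The closest of these starts are those of Isca2 and Npc2, 99 bases apart. The 98 bases between them, from RefSeq's promoter table on GRCm38.p6 and on the plus strand, which is that of Isca2, are shown because both genes start from this stretch. Capitals mark matches to motifs that were searched.

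chr12:84773153-84773250: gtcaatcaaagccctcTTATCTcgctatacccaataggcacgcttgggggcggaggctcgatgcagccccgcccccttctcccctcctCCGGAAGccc

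This stretch holds 63.3% GC. Promoter windows of 300 bases were listed for 6 of the 8 genes and not for Iscu and Hscb. They were searched on both strands for CCGGAAG, a core bound by ETS factors, AGATAA of GATA factors, AAGATGGC of YY1 and GCGCATGC of NRF1; the 2 matches printed above do not overlap. CCGGAAG was in the windows of Isca1, Isca2 and Nfs1 and in 8.86% of all 32851 windows. That share counts single windows and is not limited to expressed genes, while the 6 were counted by gene, so the shares are not fully alike. AGATAA was in that of Isca2 only (11.2% of all windows), as was AAGATGGC (2.75%), and GCGCATGC was in none of the 6 (2.71%). A match describes the letters only and says nothing of binding.

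The rest of the pathway was expressed in the same cells. All 12 other genes of mitochondrial assembly were detected, 10 of them at 10 TPM or more in each replicate, and their median was 73.2 TPM against 44.5 for the 8 genes. They were led by Hspa9 at 604 ± 268, by Ndufab1, the acyl carrier protein that binds ISD11, at 312 ± 48.0 and by Fdx2, and Nubpl at 7.48 ± 5.08 and Iba57 at 9.38 ± 2.51 were lowest. Lyrm4 lay 5.21-fold and 13.7-fold below Ndufab1. Nfu1, a late carrier, stood at 100.1 and 83.8 TPM. None of the 8 genes is an export gene, and of that step Gfer stood at 33.2 and 37.9 TPM.

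In the cytosol a separate machinery builds clusters for cytosolic and nuclear proteins. Its 11 measured genes were all above 10 TPM (median 67.1), from Bola2 at 246 ± 121, Ciapin1 at 194 ± 75.04 and Glrx3 at 113 ± 74.6 to Ndor1 at 34.2 ± 5.45 and Ciao3 at 18.1 ± 5.16. Between replicates, Nubp2 (55.4 and 124 TPM) and Bola2 were at least 2-fold higher in replicate 2, and Ciao2a (151 and 66.7 TPM) and Glrx3 at least 2-fold lower. That is 4 of 11, against 20.4% of all genes tested and 13.5% of those of at least 10 TPM in both replicates. With the GC trend removed only Glrx3 stayed past 2-fold, at a log2 ratio of -1.02, while Nubp2 came to 0.60, Bola2 to 0.16 and Ciao2a to -0.56. Among the proteins that receive clusters, the 13 mitochondrial ones had a median of 124 TPM, above that of the 8 assembly genes. Ndufs7 at 272 ± 107 and Sdhb at 209 ± 71.0, both of the respiratory chain, were among the highest, and Lias at 42.8 ± 7.23 and Cisd3 at 4.49 ± 0.177 were lowest. Ferrochelatase, the cluster protein of heme synthesis, stood at 37.8 and 49.6 TPM for Fech, below Glrx5 in both replicates. Of 16 cytosolic and nuclear cluster proteins 15 were detected (median 26.0 TPM), with the ribosome recycling gene Abce1 highest at 159 ± 79.9, followed by Ppat at 106 ± 35.2 and Pold1 at 67.0 ± 32.6. Abce1 was at least 2-fold lower in replicate 2, with a log2 ratio of -1.07, and came to -0.04 with the GC trend removed. Mutyh was low at 1.54 ± 0.445, and Dpyd had 0 counts in both replicates, which allows a share of up to 4.43e-06% and 3.75e-06% of counts, for counting error only.

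**Figure D5:**
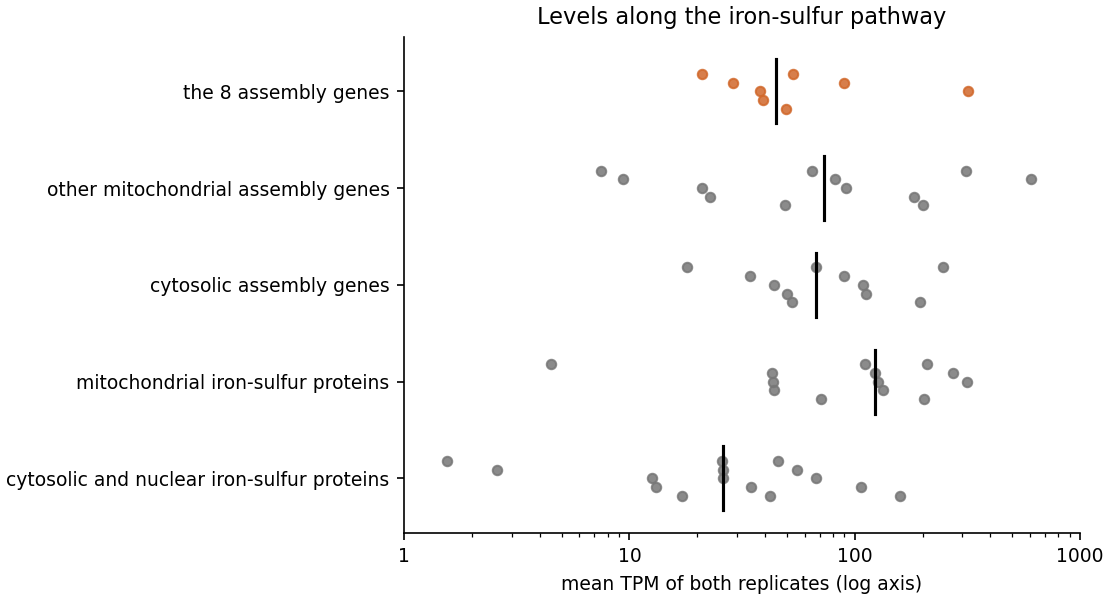
Mean TPM of both replicates on a log axis, with 1 point for each gene, by group of the iron-sulfur pathway, and a black bar at the median of each group. The 8 assembly genes are in orange with a median of 44.5 TPM, between the cytosolic and nuclear cluster proteins at 26.0 and the mitochondrial ones at 124. Dpyd, at 0, is not drawn but counts in its group's median.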

How the data were processed

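Reads were aligned to mm10 and its transcriptome and quantified per gene and transcript with GENCODE M4, per the file headers and a note deposited with each sample. The aligner, quantifier and use of strand are not given in these sources. The deposited expected counts are estimated reads, the authors divided by effective length for the deposited TPM and FPKM, and the deposited percent is a transcript's share of its gene. A deposited score column, the posterior SD of the count, never passed 0.117 of the counting error (square root of the count) for the 8 genes. It was larger for some others, at 1.42 of that error for Glrx3, 0.997 for Ndufab1 and 1.82 for the erythroid marker Hba-a1.

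Features without a mouse gene identifier (26345, at most 0.131% of counts) were left out. The genes kept held 97.1% of TPM in replicate 1 and 93.8% in replicate 2, and TPM was not rescaled. GENCODE M21 gave symbols, types and positions, with identifiers matched without version (Fdx2 as Fdx1l, Ciao3 as Narfl). Expected counts were rounded, scaled by TMM in edgeR 4.0.16 and compared as log2 ratios (0.5 added to each count) over 15251 genes holding 20 counts or more in all; with 1 library on each side no p was computed, and a gene is called at 2-fold. The GC trend was a lowess curve (fraction 0.3) over the 99.4% of genes with a value. Pairs were compared as log2(TPM + 0.1). Transcript shares were recomputed from TPM. Lengths are in bases. The ratio and trend steps were tested on simulated data.

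The genes, lists and pairs were chosen with earlier results of these data known. Named are all 8 genes, both genes of each pair, of each wider list the highest 3 and lowest 2 and those past 2-fold, and the transcripts of at least 10% mean share. Some results under this rule are not reported here. The splice forms, neighbouring genes and motifs were chosen after values were seen. Software was R 4.3.3, DESeq2 1.42.0 (size factors, as an alternative), Python 3.11.15, pandas 2.3.3, scipy 1.17.1 and statsmodels 0.14.6.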

Additional observations from a re-analysis of the deposited data

How the results depend on the processing

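All 8 genes stayed above 10 TPM with posterior mean TPM or with either replicate alone, and 7 were above 20 TPM in both. The median of their levels was 43.6 to 51.8 TPM with 1 replicate left out. The count of assembly genes past 2-fold between replicates was 0 in place of 1 with library totals and 0 with the GC trend removed, as Lyrm4 fell short of it. Over all genes the share past 2-fold was 20.4%, 8.46% with the GC trend removed and 35.8% with no minimum of the summed count, which adds genes of few counts. Of the 14 pairs, 6 stood beyond the replicate spread without replicate 2 and 7 with other pseudocounts, posterior mean TPM, FPKM or replicate 2 alone, and the main transcript of each of the 8 genes kept its majority with posterior mean TPM, by share of counts and in either replicate alone. With 2 replicates of 1 group, no paired analysis was possible because there is no second group.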
